A study of Bos taurus with 3 samples.

Results

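Gene expression in the bovine mammary gland at day 3 after parturition (+3 d) was compared with that at day 35 before parturition (−35 d), the net change from a non-lactating to a lactating gland. The comparison uses 2 of the 3 libraries of the study, and the library of day 7 before parturition (−7 d) is given beside it as values only. The glands were those of Holstein cows in their second parity, and biopsies of 6 cows per time point were pooled before RNA isolation, so that each time point is 1 library from its own 6 cows, without replicates. No cow was sampled at more than 1 time point, and the groups differ by stage alone in the labels. All genes with a tag in either library were included, which gave 8988 of the 9154 genes listed in the 3 libraries. The comparison describes these 2 pools: a difference between the cows of the 2 pools and a difference between the stages cannot be told apart.

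In the dry period the secretory epithelium of the udder is quiescent, and the alveoli regrow towards calving. Around parturition the fall of progesterone, with prolactin and glucocorticoids acting on the epithelium, starts copious secretion. The epithelial cell then makes caseins and whey proteins in the rough endoplasmic reticulum, lactose in the Golgi apparatus, and fat droplets that leave the cell wrapped in plasma membrane. Myoepithelial cells around each alveolus contract under oxytocin and eject the milk. The first secretion, colostrum, carries antibodies and antimicrobial proteins to the calf.

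Digital gene expression (DGE) counts a short tag in place of a whole transcript. The enzyme NlaIII cuts cDNA at CATG, and the site with the 17 bases after it is the tag. The −35 d library held 5914422 clean tags and the +3 d library 5845821. Clean tags are those left after the authors removed adaptors, ambiguous bases and tags seen once. The most abundant tags of each library show the change before any gene is assigned, and are printed with the CATG site in capitals. They were not matched to transcripts here and are given as sequences with their copies. The first 6 lines are the tags with the most copies at +3 d, and the last 4 are those with the most copies at −35 d.
+3 d tag 1: CATGctggtataaaggccact
+3 d tag 2: CATGcacatccggctgtcctt
+3 d tag 3: CATGaacatatcaaaatatgt
+3 d tag 4: CATGgaacaaaaaatgaaact
+3 d tag 5: CATGgcacgtcacccacaccc
+3 d tag 6: CATGtttggagtggtgcatca
−35 d tag 1: CATGtgatttcactttaactc
−35 d tag 2: CATGcatatttgggttacctt
−35 d tag 3: CATGtgacacgtatccctacc
−35 d tag 4: CATGggctttggtctttttga

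Where 3 values are given together, they are those of the −35 d, −7 d and +3 d libraries, in this order. The tag CATGctggtataaaggccact had 2668, 53108 and 408559 copies, which was 6.99% of all clean tags at +3 d against 0.0451% at −35 d. The tag CATGcacatccggctgtcctt went from 3310 copies to 298489, and CATGaacatatcaaaatatgt from 1013 to 203432. CATGtttggagtggtgcatca had 108 copies at −35 d and 53538 at +3 d. The leading tags of the dry gland moved far less: CATGtgatttcactttaactc, the most abundant of that library, had 52401 copies at −35 d and 26741 at +3 d, and CATGcatatttgggttacctt had 43261 and 31356. At −35 d, 2102 distinct tags held 50% of the copies, and at +3 d 554 did. The 10 leading tags held 5.60%, 7.67% and 22.5% of the copies.

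The same concentration appeared over genes. Tags on the genes listed in the authors' gene tables made up 40.5%, 41.4% and 53.0% of clean tags. They numbered 2397173, 2314092 and 3097468. The authors' summary counts more tags matched to a single gene, 2648693, 2577999 and 3383740. In the dry gland 354 genes held 50% of the tags on listed genes, and in the lactating gland 16 genes did. The 10 leading genes of each library held 4.49%, 7.00% and 24.8% of clean tags. Values are given as tags and as TPM, tags per 1000000 clean tags of the library; 1 tag was worth 0.169 TPM at −35 d and 0.171 TPM at +3 d. Since a transcript is tagged at a restriction site and not along its length, counts were not divided by length, and levels are compared between libraries and not between genes.

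**Figure D1:**
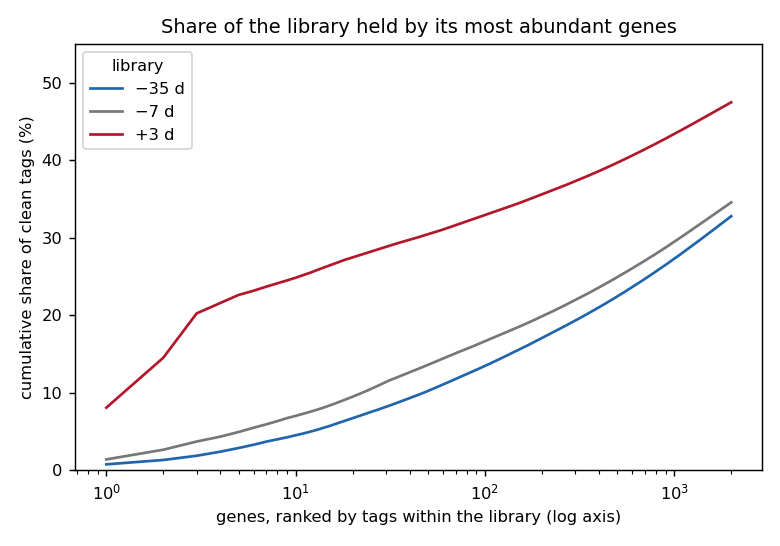
Cumulative share of clean tags (%) against the number of genes, ranked by tags within each library (log axis), with 1 line per library. The +3 d line reaches 24.8% at 10 genes, against 7.00% at −7 d and 4.49% at −35 d.

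The gain in gene tags lay in the milk protein genes. Together the 9 measured genes of this list, caseins, whey proteins and small secreted peptides of milk, had 3493, 41653 and 236171 TPM, a 67.6-fold difference between the ends. The other 8979 genes summed to 401816 TPM at −35 d and 293690 TPM at +3 d, 0.731 times as much. Of all 8988 genes, 2412 had more TPM at +3 d and 6576 had less. This shift ran through the whole range of abundance: the median log2 ratio of +3 d to −35 d was −0.63 among genes with a mean of 1 to 5 TPM, −0.54 from 5 to 20 TPM, −0.48 from 20 to 100 TPM, −0.53 from 100 to 500 TPM and −0.45 among the 88 genes of 500 TPM or more.

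Because a library has a fixed number of tags, a gene can take a smaller share when a few others take more, and the scaling of the libraries decides how this is read. Scaling to clean tags, as in the deposited TPM, gave a median log2 ratio of −0.53 over the 7612 genes whose mean of both libraries reached 1 TPM. TMM scaling, which sets the libraries to a common centre of the genes that are neither extreme in ratio nor in abundance, shifted the log2 ratio of every gene listed in both libraries up by 0.50 and gave a median of −0.03. A gene was called where the Audic-Claverie test, an exact test of 2 tag counts given the library totals, had a Benjamini-Hochberg adjusted p of at most 0.001 and the levels differed at least 2-fold. With clean tags 1672 genes were called, 209 higher (2.33% of the 8988 genes tested) and 1463 lower at +3 d (16.3%). With TMM 999 were called, 561 higher (6.24%) and 438 lower (4.87%). All 209 genes called higher with clean tags were also called higher with TMM, and all 438 called lower with TMM were also called lower with clean tags. No gene was called in opposite directions. None could be, because TMM only moved ratios up, and the nesting of the calls reflects the same shift. It is therefore no separate evidence for the calls. The text below counts as changed the genes called under both scalings, 209 higher (2.33%) and 438 lower (4.87%). This asks for a larger fold with clean tags from lower genes than from higher ones, so the 2 counts rest on unequal thresholds. LIG1, called lower under both, was 2.83-fold lower with clean tags and just over 2-fold lower with TMM. The remaining 1025 genes called lower with clean tags alone and the 352 called higher with TMM alone depend on the scaling.

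**Figure D2:**
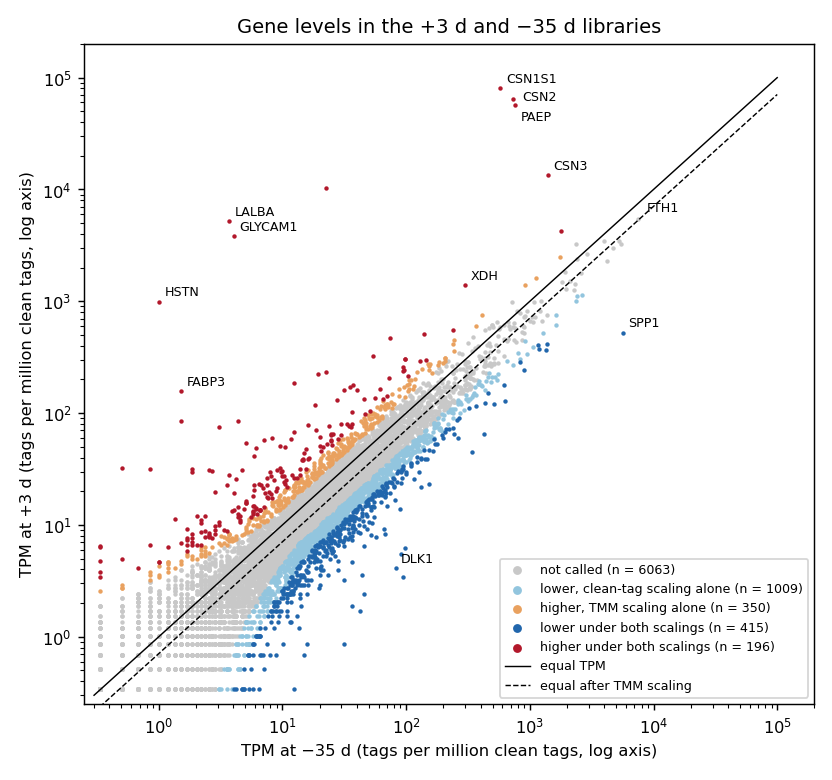
TPM at +3 d against TPM at −35 d for the genes with tags in both libraries (log axes), 1 point per gene, coloured by call; the solid line marks equal TPM and the dashed line equal level after TMM scaling. The milk protein genes stand far above both lines, SPP1 stands below them, and the cloud of the other genes follows the dashed line.

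The 200 genes called higher that are not milk protein genes summed to 5510, 10149 and 16919 TPM, 3.07-fold. The 438 genes called lower went from 32644 TPM to 20906 and 8022. Both groups were chosen by the same −35 d and +3 d counts. The direction of these sums and a difference of at least 2-fold were therefore fixed by the choice. The test covers the counting error of tags in 2 pools and no spread among animals, and copies made by PCR are not independent molecules, so that the intervals below (95%) cover counting error only. When a biological coefficient of variation of 0.2 between pools was assumed in edgeR's exact test, 54 of the 209 genes called higher and 33 of the 438 called lower were still called under both scalings, which is 0.601% and 0.367% of the genes tested. These 87 genes are marked below as called with assumed variation. Genes missing from the table of a library were taken as 0 tags, but the authors' own summary counts tags on more genes than the tables list (8871 against 8662 at −35 d and 8582 against 8359 at +3 d). The summary also counts more tags on genes, 2648693 against 2397173 at −35 d and 3383740 against 3097468 at +3 d. For genes not listed no fold is given. A true count of 0 allows up to 0.507 TPM at −35 d and 0.513 TPM at +3 d (3 tags). A gene that was left out of a table for another reason could have had more, so that this limit is not sure for genes not listed.

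All 9 milk protein genes were called higher under both scalings and with assumed variation, against 2.75% and 0.709% of the 7612 genes whose mean reached 1 TPM. Of those genes 5.75% were called lower under both scalings, and these shares are the background for all lists below. Among the caseins, which form the calcium-carrying micelles of milk, CSN1S1 (casein alpha s1) had 3424, 59285 and 471295 tags, a 139-fold difference between the ends. CSN2 (casein beta) had 4349, 69894 and 376839 tags, 87.7-fold. CSN1S2 (casein alpha-S2) had 133, 1701 and 60734 tags, 462-fold. CSN3 (casein kappa), which caps the surface of the micelle, had 8226, 22984 and 78577 tags, 9.66-fold. The intervals of the 4 caseins did not overlap: the log2 ratio was 7.12 (7.07 to 7.17) for CSN1S1, 6.45 (6.41 to 6.50) for CSN2, 8.85 (8.61 to 9.11) for CSN1S2 and 3.27 (3.24 to 3.31) for CSN3.

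Among the whey proteins, PAEP (the gene of beta-lactoglobulin) rose from 4478 tags to 77283 and 334373, 75.5-fold. LALBA (alpha-lactalbumin), the regulatory subunit that turns a galactosyltransferase into lactose synthase, had 22, 1111 and 30543 tags, the largest fold among genes with over 3 tags in both libraries (1405-fold, log2 ratio 10.46, 9.86 to 11.13). GLYCAM1, a mucin-like glycoprotein of milk, had 24, 527 and 22447 tags, 946-fold. HSTN (histatherin) had 6, 190 and 5781 tags, 975-fold. STATH (statherin) was not listed at −35 d and had 2 tags at −7 d and 22 at +3 d. Every gene of the list stood higher at −7 d than at −35 d or was at the limit of detection in both, and higher again at +3 d. In the dry gland CSN1S1 had 579 TPM and LALBA 3.72 TPM.

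**Figure D3:**
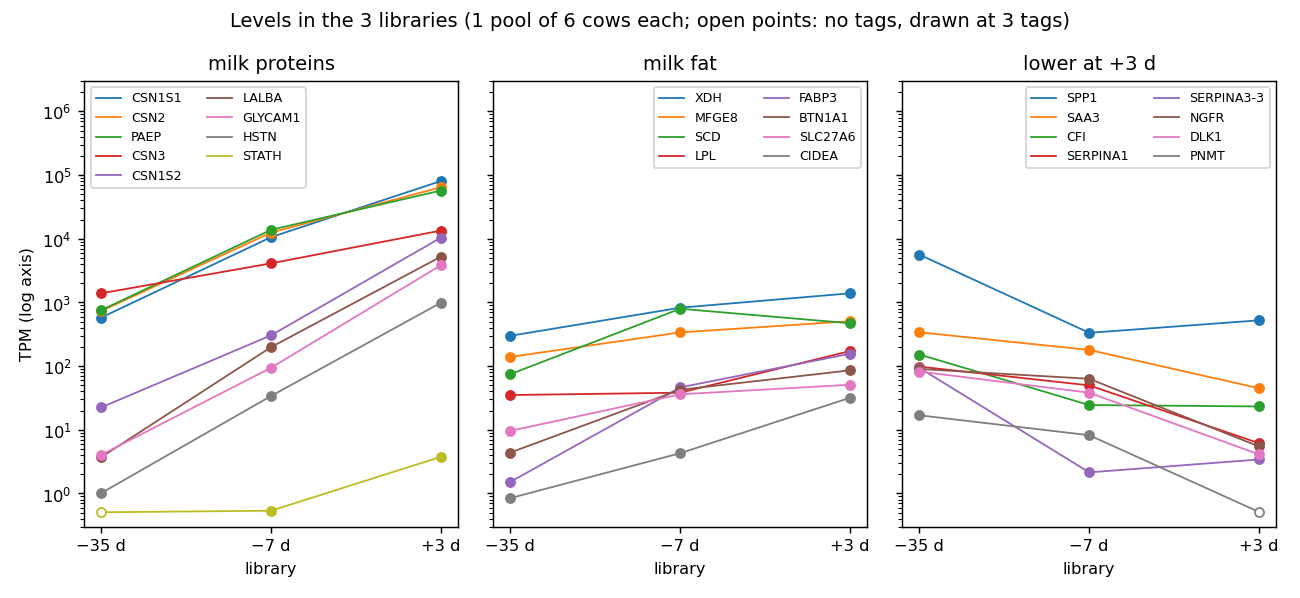
TPM (log axis) in the 3 libraries of 9 milk protein genes, 8 genes of milk fat and 8 genes that were lower at +3 d; lines join the values of 1 gene, and open points mark a library without tags, drawn at the level of 3 tags. The milk protein genes climb at both steps, while SCD peaks at −7 d and SPP1 is lowest at −7 d.

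Genes of milk fat were described by step of the pathway, and the steps were not tested against each other. FABP3, which carries long-chain fatty acids in the cytosol, had 9, 259 and 915 tags, 103-fold (log2 ratio 6.68, 5.75 to 7.82). SLC27A6, a fatty acid transporter, had 57, 202 and 298 tags, 5.29-fold. LPL (lipoprotein lipase), which frees fatty acids from blood lipoproteins, had 208, 214 and 1007 tags, 4.90-fold, so that its level at −7 d was still near that of the dry gland. These were the 3 members called higher of the 15 measured in the list for uptake and activation, all 3 also with assumed variation, and none was called lower. The median log2 ratio of the list was 0.10, 0.63 above the median of all genes.

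Of 12 genes of the milk fat globule and its secretion, 7 were called higher and none lower, with a median log2 ratio of 1.31, 1.84 above all genes. XDH (xanthine oxidoreductase) and BTN1A1 (butyrophilin), the proteins that couple the droplet to the plasma membrane, had 1771, 4626 and 8129 tags (4.64-fold) and 26, 238 and 502 tags (19.5-fold). CIDEA, a droplet protein, had 5, 24 and 186 tags, 37.6-fold (log2 ratio 5.23, 3.99 to 6.87). MFGE8 (lactadherin) had 824, 1894 and 2965 tags, 3.64-fold. The mucin MUC15 had 108, 122 and 685 tags and MUC1 had 276, 123 and 575, and ABCG2, a transporter of vitamins and drugs into milk, had 270, 315 and 779. XDH, BTN1A1, CIDEA, MFGE8 and MUC15 were also called with assumed variation. PLIN2, the coat protein of cytosolic droplets, had 698, 2847 and 1192 tags and was called higher with TMM alone (log2 ratio 0.79, and 1.29 with TMM).

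Of the 18 measured genes of fatty acid synthesis and desaturation, SCD alone was called higher and 2 were called lower. SCD, which desaturates stearic to oleic acid, had 442, 4454 and 2757 tags, 6.31-fold between the ends and called with assumed variation. FASN, the fatty acid synthase, had 3906, 15686 and 3817 tags. The interval of its log2 ratio included 0 with clean tags (−0.02, −0.08 to 0.05), and the ratio was 0.48 with TMM, under the 2-fold threshold, although the level at −7 d stood far above both ends. THRSP, a nuclear protein of lipogenic tissues, had 116, 341 and 16 tags, and was 7.17-fold lower at +3 d. LOC789567, which matches HSD17B12 in the current annotation, an enzyme of fatty acid elongation, had 109, 105 and 29 tags. The median of the list was −0.26 with clean tags and 0.24 with TMM, 0.27 above all genes in either case. Of 10 genes of triacylglycerol synthesis 1 was called higher and 1 lower, with a median of 0.14, 0.67 above all genes. Its last step showed opposite changes of its 2 enzymes: DGAT1 rose from 86 tags to 226, 2.66-fold, with 220 at −7 d, and DGAT2 fell from 72 tags to 15, 4.74-fold, with 165 at −7 d. Neither was called with assumed variation. Among lipogenic regulators PPARG, a nuclear receptor of fat cells, had 17, 24 and 57 tags, and SREBF1 (343, 824 and 538 tags) was called with TMM alone.

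The calls of sterol and carbohydrate genes stand beside shares over all genes of 2.75% called higher and 5.75% called lower. Of 21 measured genes of cholesterol synthesis none was called higher, and CYP51A1 (148, 144 and 43 tags), a demethylase of the sterol pathway, was called lower. Of 15 genes of lactose synthesis and glucose uptake LALBA was the only one called. B4GALT1, the galactosyltransferase that LALBA modifies, had 109, 235 and 127 tags, a log2 ratio of 0.24 (−0.14 to 0.62). The glucose transporters SLC2A1 (205, 306 and 292 tags), SLC2A3 (181, 188 and 342) and SLC2A8 (61, 111 and 102) were called higher with TMM alone. HK1, a hexokinase, had 710, 500 and 300 tags and was called lower with clean tags alone. Of 16 genes of glycolysis and the pentose phosphate pathway, ALDOC (472, 1842 and 151 tags) and TALDO1 (1519, 2125 and 508 tags) were called lower, after being highest at −7 d.

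Of the transporters of amino acids 2 of 19 were called higher and none lower. Of those of ions and water 2 of 23 were called higher and 1 lower. The shares over all genes were 2.75% higher and 5.75% lower. Among 19 measured amino acid transporters, the 2 called higher were carriers of glutamine: SLC38A3 had 8, 24 and 66 tags, 8.35-fold (log2 ratio 3.06), and SLC38A5 was not listed at −35 d and had 3 and 15 tags. The large neutral amino acid transporter SLC7A5 (145, 95 and 59 tags) and its partner SLC3A2 (433, 137 and 183 tags) were called lower with clean tags alone. Among 23 genes of ion and water transport, SLC34A2, a sodium-phosphate cotransporter, had 2, 0 and 38 tags (log2 ratio 4.26, 2.31 to 7.36). AQP3, a channel for water and glycerol, had 35, 250 and 134 tags, 3.87-fold. SLC12A2, the sodium-potassium-chloride cotransporter, had 91, 119 and 23 tags, 3.91-fold lower.

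Several genes of hormones and receptors had hardly any tags in the dry gland. OXTR, the oxytocin receptor of the milk ejection reflex, had 2, 9 and 37 tags (log2 ratio 4.23, 2.27 to 7.32). PTHLH, the parathyroid hormone-related protein that the lactating gland releases to draw calcium from bone, had 22, 24 and 164 tags, 7.54-fold (log2 ratio 2.92, 2.27 to 3.63). Both were called with assumed variation. They were the 2 called higher of 16 measured genes in the list named for prolactin, growth hormone and steroid signalling, but belong to other hormones. The median log2 ratio of that list was −0.64, which differed from all genes by −0.10. STAT5A, which carries the prolactin signal, had 39, 40 and 17 tags and was not called. SST (somatostatin), an inhibitory peptide hormone, was not listed at −35 d or −7 d and had 97 tags at +3 d, 16.6 TPM. The reverse held for PNMT, which makes adrenaline from noradrenaline: it had 100 tags at −35 d, 46 at −7 d and was not listed at +3 d. ADM (adrenomedullin), a vasodilator peptide named here after its values were seen, had 49, 66 and 348 tags.

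Secreted defence proteins moved in both directions. Of 30 measured genes of the list, 9 were called higher (2.75% of all genes were) and 5 lower (5.75%), and the median log2 ratio of −0.48 was 0.05 above that of all genes. LPO (lactoperoxidase), an antibacterial enzyme of milk, was not listed at −35 d, had 2 tags at −7 d and 440 at +3 d, 75.3 TPM. RNASE1 had 115, 341 and 1307 tags and RNASE2 had 15, 616 and 182, the latter highest at −7 d; these secreted ribonucleases and ANG (237, 518 and 934 tags) are near relatives, so that reads could be split among copies. CD14, a receptor for bacterial lipopolysaccharide, had 17, 24 and 115 tags, 6.84-fold. PIGR, which carries immunoglobulin A across the epithelium, had 855, 7772 and 1748 tags, and the ends differed 2.07-fold. LPO, RNASE1, RNASE2, ANG, CD14 and MUC15 were called with assumed variation, and PIGR was not.

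The largest loss of tags was in SPP1 (osteopontin), a secreted phosphoprotein of milk and bone. SPP1 had 33341, 1864 and 3065 tags, 10.7-fold lower between the ends (log2 ratio −3.43, −3.48 to −3.37), and it was called with assumed variation. SAA3, an acute phase protein made in the udder, had 2011, 1005 and 263 tags, 7.56-fold lower, and was also called with assumed variation. CHI3L1 had 370, 27 and 93 tags and WFDC2 had 1175, 241 and 351. LTF (lactoferrin), the iron-binding protein that is rich in dry secretion, had 15675, 9319 and 6640 tags, and was called lower with clean tags alone (log2 ratio −1.22, and −0.72 with TMM). CLU (clusterin), among the 5 genes with the most tags in the dry library, had 28057, 10391 and 17532 tags and was not called.

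Several genes of the serpin family of protease inhibitors were called lower. SERPINA1 (alpha-1-antitrypsin) had 581, 279 and 36 tags, 16.0-fold lower (log2 ratio −4.00, −4.52 to −3.51). SERPINA11 had 185, 73 and 5 tags, and SERPINA5 had 395, 152 and 54. SERPINA3-3 (endopin 1b) had 555, 12 and 20 tags, 27.4-fold lower, and belongs to a family of near-identical genes whose counts are uncertain. All 4 were called with assumed variation, and they were put together after their values were seen. Of 22 measured matrix proteases and inhibitors 4 were called lower (5.75% of all genes were) and none higher, SERPINA1 and the protease CTSS among them, and the 2 matrix metalloproteinases called had few tags: MMP9 had 31 and 5 tags and was not listed at +3 d, and MMP7 had 32, 2 and 2. CFI (complement factor I), which cleaves activated complement proteins, had 900, 137 and 136 tags, 6.54-fold lower, so that its whole difference lay before −7 d.

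Further genes lay among the 15 lowest called with over 3 tags in both libraries. DLK1, a Notch-like membrane protein that restrains differentiation, had 486, 214 and 24 tags (log2 ratio −4.32, −4.98 to −3.73). NGFR, the low-affinity neurotrophin receptor, had 533, 354 and 32 tags, 16.5-fold lower. MYB, a transcription factor of proliferating progenitors, had 268, 165 and 14 tags, 18.9-fold lower. These 3 genes had fewer tags at each step and were called with assumed variation. HS3ST1, a heparan sulfate sulfotransferase, had 261, 607 and 21 tags, and UGT8, a galactosyltransferase of sphingolipids, had 60, 64 and 5. GOLGA7B had 93, 13 and 5 tags, and RP2 had 52, 22 and 4. Among genes with few tags at +3 d, the beta-defensin DEFB103B had 73, 22 and 2 tags, DIRAS3 had 34, 3 and 2, and the transcription factor IRX3 had 33, 14 and 3. RSPO1, a secreted activator of Wnt signalling outside the rule for named genes, had 29 tags at −35 d, 130 at −7 d and none at +3 d.

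Genes of the cell cycle and mitosis had the lowest median of the gene lists with at least 5 measured members. Of 58 measured genes of this list, 12 were called lower and none higher, against 5.75% of all genes called lower, and the median log2 ratio was −1.74, which differed from that of all genes by −1.20. Only 5 of the 58 stood above the median of all genes. ZWINT, a kinetochore protein, had 88, 64 and 4 tags, 21.7-fold lower. CKS2, a partner of cyclin-dependent kinases, had 139, 203 and 21 tags, NUSAP1, a spindle protein, had 125, 209 and 23, BIRC5 (survivin) had 81, 226 and 25, and STMN1 had 642, 881 and 197. CKS2, NUSAP1, BIRC5 and STMN1 had more tags at −7 d than at either end. Of 37 genes of DNA replication 9 were called lower and none higher, with a median of −1.14. They include the clamp PCNA (406, 483 and 137 tags), the helicase subunit MCM4 (294, 435 and 62 tags) and thymidylate synthase, TYMS (81, 34 and 7 tags). PAF (KIAA0101), which binds PCNA, had 250, 380 and 10 tags, and CCND1 (cyclin D1) had 47, 25 and 4. The counts of single mitotic genes were low, and among these lists ZWINT, DLGAP5, TYMS and MCM5 were called with assumed variation, against 0.434% of all genes.

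**Figure D4:**
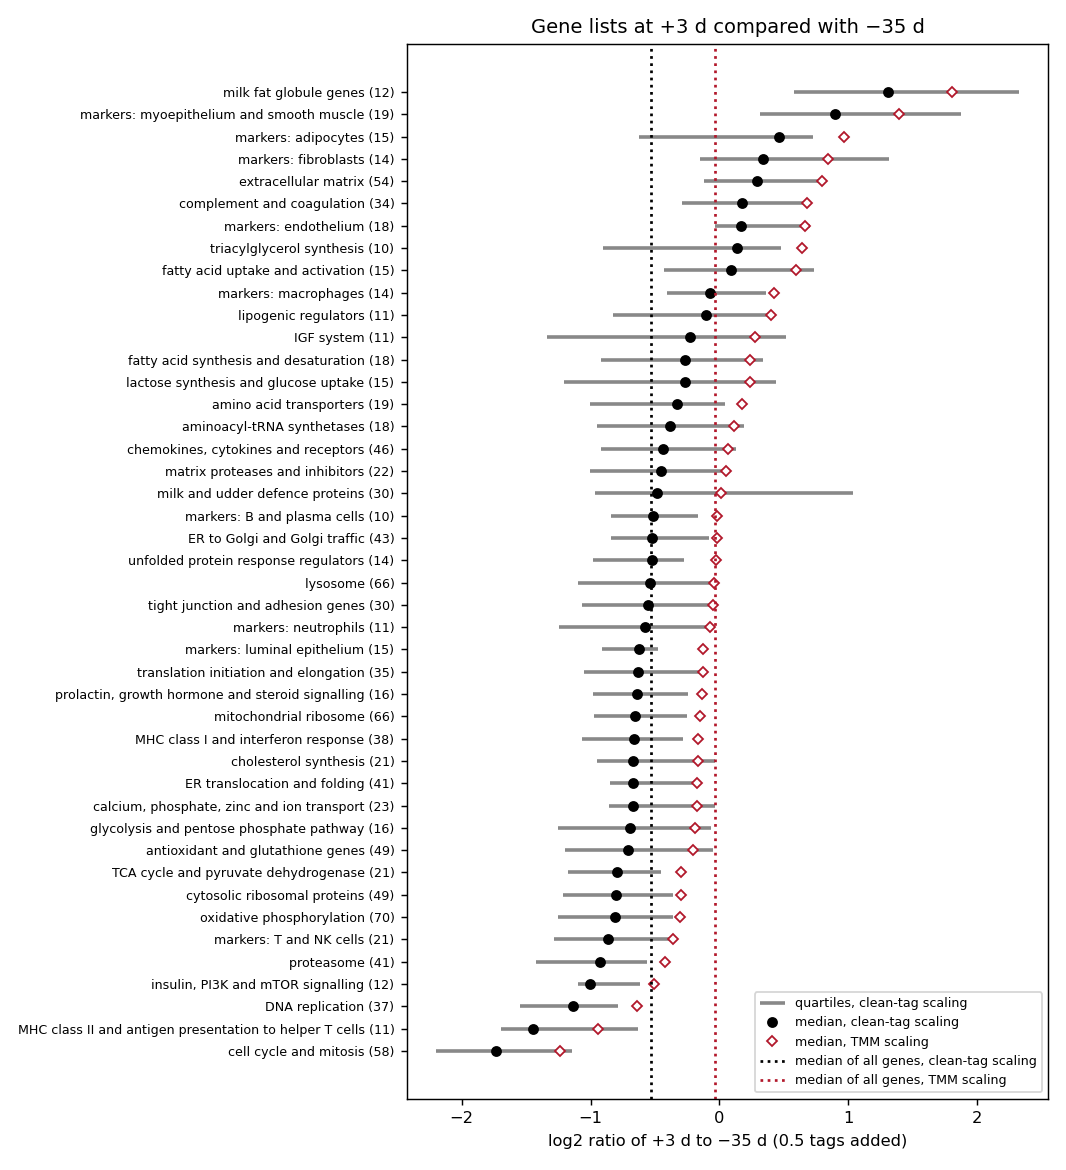
Median log2 ratio of +3 d to −35 d for the gene lists with at least 5 measured members (number in brackets), with clean-tag scaling (black, grey bars are quartiles) and with TMM scaling (red), and the medians of all genes as dotted lines. Milk fat globule genes and the joint list of markers of myoepithelium and smooth muscle lie highest, and cell cycle and mitosis lies lowest. Milk protein genes, at a median of 7.12, are left out of the plot.

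The machinery that supplies energy and makes proteins had none of its members called higher under both scalings, and the medians of its lists lay on both sides of that of all genes. Over all genes 2.75% were called higher and 5.75% lower. In oxidative phosphorylation 10 of 70 genes were called lower, with a median of −0.81, among them COX7A2 (314, 63 and 61 tags) and COX5A (412, 168 and 129 tags) of complex IV and NDUFA6 (776, 519 and 229 tags) of complex I. Other members were not called, such as COX4I1 with 2776, 2916 and 3376 tags. Of the citric acid cycle, SDHC (72, 26 and 14 tags) and FH (642, 509 and 206 tags) were called lower among 21 genes. Cytosolic ribosomal proteins had 6 of 49 members called lower and a median of −0.80, with RPL39 at 3711, 1252 and 743 tags and RPL3 at 755, 253 and 175, while RPL10 (31216, 33670 and 20266 tags) and RPL13A (32238, 35098 and 18912 tags) were not called. Of 18 aminoacyl-tRNA synthetases, which charge transfer RNA with amino acids, 1 was called lower, HARS (140, 99 and 44 tags), and their median of −0.38 was 0.15 above all genes. Mitochondrial ribosomal proteins had 4 of 66 called lower (5.75% of all genes were), MRPS22 (158, 99 and 40 tags) among them. Copies and pseudogenes of ribosomal protein genes make their counts uncertain.

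The proteasome, which degrades proteins, had 7 of 41 genes called lower (5.75% of all genes were) and a median of −0.92, which differed from all genes by −0.39. PSMD3 (1007, 632 and 311 tags) and PSMB2 (1227, 1034 and 398 tags) were the most abundant of the 7. No gene of the secretory route was called higher under both scalings. Of 41 genes of translocation and folding in the endoplasmic reticulum none was called higher and 1 was called lower, SRP19 (899, 819 and 272 tags), and the chaperones HSPA5 (1772, 2336 and 955 tags) and HSP90B1 (2111, 2652 and 1159 tags) were not called. Of 43 genes of traffic between reticulum and Golgi, COPG alone was called, lower, with 286, 124 and 96 tags. Of 14 regulators of the unfolded protein response none was called under both scalings, and the transcription factor ATF4 had 506, 366 and 379 tags. For these lists the median differed from all genes by −0.14, 0.02 and 0.01. Of 12 genes of insulin, PI3K and mTOR signalling none was called under both scalings, 6 were lower with clean tags alone (19.2% of all genes were lower with clean tags), and the median differed from all genes by −0.47; DDIT4, an inhibitor of mTOR, had 601, 374 and 282 tags (log2 ratio −1.07, and −0.57 with TMM). The share of an RNA in the library does not give its amount per cell, and in pooled tissue fewer cells of a type and less RNA per cell cannot be told apart.

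Matrix genes lay above most others. Of 54 measured genes of the extracellular matrix 8 were called higher and none lower under both scalings, 49 stood above the median of all genes, and the median log2 ratio was 0.30, 0.83 above all genes. With TMM 20 were called higher, against 7.34% of all genes. COL8A1, a short-chain collagen of vessels and basement membranes, had 74, 133 and 1076 tags, 14.7-fold (log2 ratio 3.88, 3.54 to 4.24), and was the only member called with assumed variation. SPARC, a matrix glycoprotein that binds collagen, had 10598, 10787 and 24615 tags, 2.35-fold. THBS1 (thrombospondin) had 561, 312 and 1381 tags and MFAP5, of microfibrils, had 431, 660 and 1197. The main fibrillar collagens changed less: COL1A1 had 14031, 11588 and 19069 tags, and COL3A1 had 14282, 10232 and 13969, a log2 ratio of −0.02 with clean tags and 0.49 with TMM.

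Markers of several cell types moved with these lists. Of 19 markers of myoepithelium and smooth muscle, 7 were called higher and none lower, and their summed level was 1909, 1480 and 3169 TPM. ACTG2, an actin of smooth muscle, had 132, 332 and 1372 tags, 10.5-fold. TPM2 (tropomyosin) had 317, 544 and 1883 tags, 6.01-fold, and DES (desmin) had 221, 220 and 1048, 4.80-fold, and all 3 were called with assumed variation. The list was not uniform, since ACTA2 (1095, 467 and 937 tags) and KRT14 (353, 324 and 300 tags) were not called and KRT5 (945, 230 and 363 tags) was called lower with clean tags alone. TMOD4, which caps actin filaments in muscle and is no member of the list, was not listed at −35 d and had 6 and 41 tags. Markers of fibroblasts had 3 of 14 called higher and a sum of 9418, 6739 and 10559 TPM, with PI16 at 575, 329 and 1782 tags, and markers of endothelium 2 of 18 and a sum of 644, 608 and 818 TPM, with ERG at 88, 94 and 257 tags. Markers of adipocytes had 2 of 15 called higher and 1 lower, and a sum of 410, 357 and 676 TPM. The 2 called higher, LPL and PPARG, and the 1 called lower, THRSP, are also genes of the milk fat lists. ADIPOQ, a hormone of fat cells, had 30, 27 and 16 tags and was not called. Markers of luminal epithelium, KRT8 (1754, 878 and 957 tags) and EPCAM (2944, 1639 and 1229 tags) among them, had 1 of 15 called higher, MUC1, and summed to 2848, 2069 and 1810 TPM. They were present in every library, as the label of mammary tissue requires. The 4 listed markers of red blood cells were not called and summed to 2.37, 1.79 and 4.11 TPM, with AHSP at 10, 10 and 21 tags, ALAS2 at 0, 0 and 3 and HBB at 2, 0 and 0. The part of differing cell content in the changes of matrix, muscle, adipocyte and other marker genes was not tested.

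**Figure D5:**
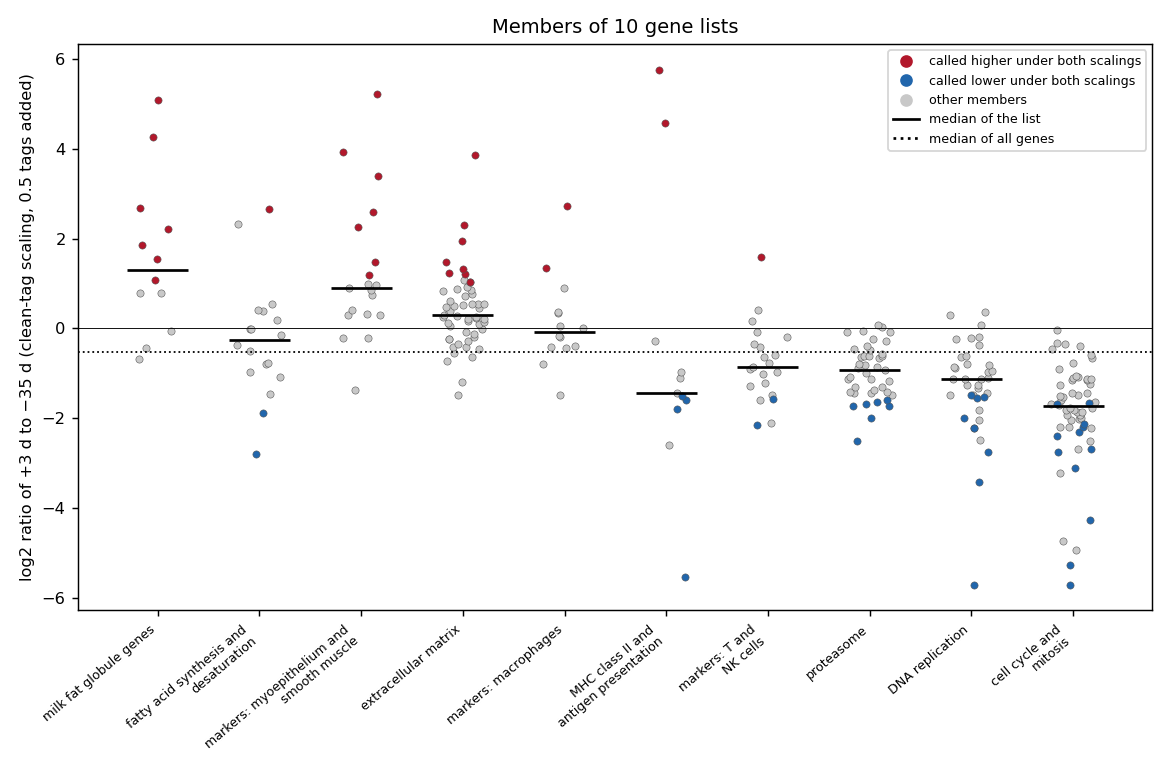
Log2 ratio of +3 d to −35 d (clean-tag scaling, 0.5 tags added) for each measured member of 10 gene lists, with the median of the list as a bar and that of all genes as a dotted line. Red and blue points were called higher and lower under both scalings; the 2 high points of the MHC class II list are HLA-DQA1 and BOLA-DQB.

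Immune lists lay on both sides of the median of all genes, with MHC class II and T and NK cells below it and complement and macrophages above it. In MHC class II and antigen presentation to helper T cells 4 of 11 genes were called lower and 2 higher, and the median was −1.44. HLA-DMB, which loads peptides, had 329, 135 and 107 tags, and CTSS, a protease of antigen processing, had 2557, 842 and 727. HLA-DRA (4917, 2312 and 1786 tags) and CD74 (9581, 5586 and 4406 tags) were called lower with clean tags alone. Within the DQ genes the directions were opposite: HLA-DQA1 had 18, 64 and 439 tags and BOLA-DQB had 3, 78 and 188 (log2 ratio 5.99, 4.42 to 8.28), while BOLA-DQA2 had 23, 3 and 0 tags and BLA-DQB had 510, 398 and 176. These genes are highly polymorphic and near copies of each other, and each library held its own 6 cows, so that different alleles in the pools and different expression cannot be told apart.

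Markers of T and NK cells had a median of −0.86, with 2 of 21 called lower, NCR3 (69, 43 and 15 tags) and CD27 (214, 138 and 71 tags), and GNLY (granulysin; 41, 100 and 124 tags) called higher. Their summed level was 399, 273 and 274 TPM. Of 46 chemokines, cytokines and receptors 5 were called lower and 1 higher. CCL21, which guides lymphocytes and dendritic cells, had 217, 84 and 27 tags, 7.94-fold lower and called with assumed variation. CX3CR1 had 1056, 438 and 308 tags, CXCL10 had 550, 383 and 154, and TNF had 53, 26 and 12. CXCL2, a chemokine for neutrophils, had 365, 320 and 963 tags for the more abundant of 2 accessions that share the symbol. Of 11 measured markers of neutrophils 2 were called lower (5.75% of all genes were) and none higher. These were MMP9 (31, 5 and 0 tags) and PGLYRP1 (78, 180 and 9 tags). The neutrophil markers summed to 2788, 1785 and 1231 TPM, most of it LTF, which the epithelium makes as well. Of 10 markers of B and plasma cells none was called under both scalings. They summed to 4357, 4094 and 3646 TPM, most of it IGLL1 (23747, 21805 and 20099 tags).

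Macrophage markers lay above all genes, with a median log2 ratio 0.46 higher. Of 14 measured markers 2 were called higher and none lower, with a summed level of 546, 369 and 623 TPM. CD163, a scavenger receptor, had 46, 11 and 116 tags, 2.55-fold, beside CD14. Of the other listed markers CSF1R, the receptor that maintains macrophages, had 308, 126 and 318 tags and CD68 had 35, 5 and 12, and neither was called. CD5L and F13A1 are no members of this list. CD5L, a protein that tissue macrophages secrete, had 11, 5 and 175 tags, 16.1-fold (log2 ratio 4.01, 3.13 to 5.04). F13A1, the A chain of coagulation factor XIII and a member of the complement and coagulation list, had 42, 40 and 338 tags, 8.14-fold. Both were called with assumed variation. Lysosomal genes had 8 of 66 called lower and none higher, with LIPA (470, 134 and 127 tags) and PSAP (383, 96 and 115 tags) among them, at a median that differed from all genes by −0.01. Of 34 genes of complement and coagulation 3 were called higher and 2 lower, with a median of 0.18, which was 0.71 above all genes; C3 had 1423, 363 and 1346 tags.

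Among the remaining genes with the largest increases, GP2, a membrane glycoprotein of secretory granules, had 9, 38 and 501 tags, 56.3-fold (log2 ratio 5.82, 4.88 to 6.95), and ALOX15, a lipoxygenase, was not listed at −35 d and had 5 and 104 tags. Antioxidant genes had 2 of 49 called higher, the secreted GPX3 (557, 284 and 1502 tags) and glutathione synthetase, GSS (48, 122 and 160 tags), and 3 lower, among them GPX1 (1573, 755 and 533 tags). The shares over all genes were 2.75% higher and 5.75% lower. In the IGF system IGFBP4 was called lower, with 2158, 684 and 672 tags. Of 30 genes of junctions and adhesion JUP (355, 123 and 114 tags) and PERP (1317, 741 and 424 tags) were called lower, against 5.75% of all genes. FTH1 (ferritin), the gene with the most tags in the dry gland, had 43950, 30877 and 31787 tags, a log2 ratio of −0.45 with clean tags and 0.05 with TMM, and was not called.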

How the data were processed

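Mammary tissue of 18 Holstein cows was combined into pools of 6 per time point, each giving 1 DGE library. The authors filtered the tags, matched them with at most 1 mismatch to the sites of transcripts of the genome UMD 3.1 and dropped tags of several genes. They deposited counts of each distinct clean tag (with a per-tag score, TPM rounded to 2 decimals by the authors, which was not used), counts of clean tags per gene, and TPM values. The counts per gene divided by the clean tags gave the deposited TPM values to within 0.0050. The mapping summary of numbers and percent values that the authors deposited was used for totals only. The aligner is not given in the sources used here.

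Gene tables were joined by accession, and a gene not listed was given 0 tags. Symbols came from the deposited descriptions, and 7905 of 9154 accessions were also matched to the annotation ARS-UCD2.0, for names only. For the Audic-Claverie p the smaller tail was doubled, and p was adjusted by the Benjamini-Hochberg method over 8988 genes. With 1 library per time point it compares libraries, not conditions. A 0 was set to 0.01 TPM in ratios, and 0.5 tags were added for medians of lists, whose members had to reach a mean of 1 TPM. Depth was 5593237 to 5914422 clean tags per library, and exact binomial intervals of ratios (95%) show the precision this gives.

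The members and the 46 gene lists were chosen with earlier results of these data known, and no set was tested. Named genes are the 5 with the most tags in each library, the 15 highest and 15 lowest called under both scalings with over 3 tags in each library, the 8 in each direction with the most tags among those with at most 3 tags in 1 library, up to 4 called members of each list by tags (or 2 uncalled ones) and all milk protein genes, 156 in all. Not all of these genes and not all 46 lists are given in the text. MGC157266 (11, 2 and 184 tags) and LOC100125916 (216, 116 and 11 tags) are among the genes left out. Genes named outside this rule, as further members of a list or relatives of a named gene, were named after their values were seen. No fold is given where a library had 3 tags or fewer.

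Alternatives were TMM and DESeq2 size factors, 2 other totals, a minimum mean of 5 TPM, 0.5 tags added, genes listed in both libraries, a 3-fold threshold, Fisher's exact test, and the exact test of edgeR where variation between pools was assumed (0.2 or 0.4). The exact test with 0.2 and TMM together, from which the calls with assumed variation under both scalings come, was added after seeing the data. The scripts were tested on simulated data. Tools were Python 3.11.15, numpy 2.4.6, scipy 1.17.1, pandas 2.3.3, matplotlib 3.10.9, R 4.3.3, edgeR 4.0.16 and DESeq2 1.42.0. Enrichment of GO terms and pathways, antisense tags and qRT-PCR were not analysed here.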

Additional observations from a re-analysis of the deposited data

How the results depend on the processing

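The count of called genes and its split depended on the scaling. With clean tags 1672 genes were called, 87.5% of them lower, and the median log2 ratio of all genes was −0.53. With TMM these values were 999, 43.8% and −0.033, with DESeq2's size factors 989, 42.0% and −0.014, with totals that leave out the genes over 1% of a library 1039, 60.3% and −0.17, and with the total of tags on listed genes 3019, 96.0% and −0.92. A 3-fold threshold gave 659 genes, 81.0% lower. The exact test of edgeR, assuming variation between pools, gave 156 genes at 0.2 (65.4% lower), 14 at 0.4 (7.14% lower), and 120 at 0.2 with TMM (27.5% lower), a combination added after seeing the data. Fisher's exact test, the 5 TPM minimum, genes listed in both libraries and 0.5 tags added gave 1485 to 1664 genes, within 1.5 times of 1672.

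Of the 145 named genes called with clean tags none changed direction, but none could. The other scalings shifted the log2 ratio by at most 0.52, less than the 1 needed for a call, and the other alternatives kept its sign. Most of the 145 were named for being called under both scalings, so that their calls with TMM were fixed in advance. The 5 TPM minimum tested 130 of them, the genes listed in both libraries 137, and every other alternative all 145. TMM and the totals without the genes over 1% each lost 1 call (DDIT4 with TMM), DESeq2's size factors lost 3, the total of gene tags 9, the 3-fold threshold 26, and the exact test 74 at 0.2, 81 at 0.2 with TMM and 131 at 0.4. Under the 5 TPM minimum the medians of 45 lists, taken relative to all genes, moved by less than the quartile range of the list, and for erythrocytes, with 1 measured member, it left no value. The other alternatives shift all genes alike or do not enter a median.

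No paired analysis was possible because each time point is 1 pooled library, and no library was left out since the comparison needs both. The spread among cows was not measured, and genes of few tags, mitotic genes among them, are limited by depth.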

Other observations

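Some tags were abundant in 1 library and absent from the other while a tag that differs by a single base was present in both. Of 34 tags with at least 50 copies at −35 d and none at +3 d, 20 (58.8%) had a neighbour at 1 mismatch with at least 50 copies at +3 d. Among the 15938 tags with at least 50 copies at −35 d that were present at +3 d, 611 (3.83%) had such a neighbour. Of 118 tags with at least 50 copies at +3 d and none at −35 d, 52 (44.1%) had a neighbour with at least 50 copies at −35 d, against 664 of 12522 (5.30%), but many of these 52 lie beside the dominant tags of the lactating gland, whose 1-mismatch neighbours together held 0.730% to 2.36% of their copies. Some of the 20 tags absent at +3 d also lie beside an abundant tag. CATGtgacacgtctccctacc (129 copies at −35 d) and CATGtgacacgtttccctacc (63 copies) differ by 1 base from CATGtgacacgtatccctacc (39590 copies). The 1-mismatch neighbours of the latter together held 1.90% of its copies at −35 d. The threshold of 50 copies was chosen after seeing the data. Examples follow, with the CATG site in capitals, the tag missing from 1 library first and its neighbour second. In the substitutions given after them, positions count from 1 at the first base of the tag, with the base of the first tag before the position and that of the neighbour after it.
pair 1, first: CATGgaaagatttcctgctta
pair 1, neighbour: CATGgaaaggtttcctgctta
pair 2, first: CATGtgagtgtcaataggtct
pair 2, neighbour: CATGtgagtgtcagtaggtct
pair 3, first: CATGccgcgtgaaaccaacaa
pair 3, neighbour: CATGccgcgtgaaaccagcaa

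CATGgaaagatttcctgctta had 661, 460 and 0 copies in the −35 d, −7 d and +3 d libraries, while CATGgaaaggtttcctgctta (A10G) had 1127, 667 and 837. CATGtgagtgtcaataggtct had 357, 697 and 0 copies and CATGtgagtgtcagtaggtct (A14G) had 1373, 2001 and 1837, so that the pair together stood at 293 TPM at −35 d and 314 TPM at +3 d. In the other direction CATGccgcgtgaaaccaacaa had 0, 191 and 259 copies and CATGccgcgtgaaaccagcaa (A18G) had 851, 467 and 363. Each pool held other cows, and alleles of different cows and transcripts of related genes cannot be told apart in these tags. The authors allowed 1 mismatch when they matched tags to genes, so that a gene count can hold both tags of a pair.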
